A study of Mus musculus with 18 samples.

Results

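The genes described here are the 47 whose symbols begin with Nduf, the nuclear genes named for NADH:ubiquinone oxidoreductase, or respiratory complex I. They were taken by symbol from the 2 deposited tables of gene values, which hold 18329 genes for the acute libraries and 18953 for the survival libraries, and all 47 stood in both tables. Of these, 8 are Ndufaf genes, which encode assembly factors that help to build the complex and are not part of the finished enzyme. The other 39, called subunit rows below, comprise 16 genes of the peripheral arm, 19 of the membrane arm, Ndufab1 (present in both arms), Ndufa4 and Ndufa4l2 (a subunit of complex IV and its paralog, named for complex I before this was known) and Ndufb4c, which GENCODE annotates as a processed pseudogene. Ndufb1 had no values under that symbol, so it was not analysed here.

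Complex I takes electrons from NADH in its peripheral arm, which reaches into the mitochondrial matrix, passes them along a chain of iron-sulfur clusters to ubiquinone, and pumps protons through its membrane arm. A small conserved core does the chemistry, with the hydrophobic core proteins encoded by mitochondrial DNA (the mt-Nd genes) and the hydrophilic ones by nuclear genes, and many accessory subunits surround it. In proliferating T-lineage cells the enzyme regenerates NAD+ and feeds the respiratory chain, which keeps the tricarboxylic acid cycle, the source of the citrate that Acly uses, running.

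RNA was sequenced in 18 libraries from leukemic spleens of C57BL/6 mice. Every mouse, in all groups, had been irradiated below the lethal dose and given T-cell acute lymphoblastic leukemia (T-ALL) cells that carry a conditional knockout allele of Acly, the gene of ATP citrate lyase. The knockout (KO) groups received tamoxifen at 3 mg per mouse in corn oil, and the groups labelled wild type (WT) received corn oil alone, so tamoxifen itself and the loss of Acly cannot be told apart. Acute libraries (4 KO, 4 WT) were taken 48 h after mice with overt leukemia were treated. For the survival libraries, treatment was given 48 h after the transplant and the spleen was taken at the humane endpoint. They comprise 3 KO libraries labelled first wave, 3 KO libraries labelled second wave and 4 WT libraries. The sources used here do not say what the waves are, which Cre driver was used, or whether the libraries of a group are separate mice or leukemias, so a p-value covers only the spread between these libraries, which may be technical. The spleens were made into cell suspensions and red cells were lysed, but leukemia cells were not sorted from host cells.

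Estimated depth was 6.09 M to 12.7 M reads per library. Acly, the targeted gene, was at 619.6 to 803.8 normalized counts in the acute KO libraries against 1128.8 to 1421.6 in WT. In the survival libraries it was at 656.0 to 799.6 in the first wave, 505.2 to 655.2 in the second wave and 1485.7 to 1853.8 in WT, so no KO library reached a WT library (exact two-sided permutation p = 0.0286 for each KO group against its WT group, the smallest these designs allow). The adjusted p was 0.00266 in the acute fit, 0.00155 in the second wave and 0.0562 in the first wave. All 16 markers of T-ALL cells and thymocytes were above 0 in every library. On the first principal component KO acute replicate 2 (-67.1) lay farther out than the other acute KO libraries (-22.7 to -36.0), and WT survival replicates 1 and 2 (-78.6 and -67.2) stood apart from WT replicates 3 and 4 (18.8 and -4.16). Second-wave replicate 1 (73.2) stood apart from the other survival KO libraries (3.65 to 16.5).

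The first comparison asks how transcripts of complex I stood 48 h after tamoxifen in established leukemia, against corn oil. Acly RNA had a log2 fold change of -0.78 there, so part of it remained. The extent of deletion was not measured here. Of 38 subunit rows tested, 5 fell in KO and 0 rose: Ndufs8, Ndufb2, Ndufb11, Ndufc1 and Ndufa4. In GENCODE M21 on GRCm38 these genes span chr19:3908863-3912774 (Ndufs8, minus strand), chr6:39592574-39603382 (Ndufb2, plus), chrX:20615326-20617619 (Ndufb11, minus), chr3:51404677-51408988 (Ndufc1, minus) and chr6:11900292-11907497 (Ndufa4, minus). The 5 called rows are 13.2% of the 38, and of all 14184 genes tested 12.6% were called in either direction and 8.07% were called lower. Of the subunit rows, 30 had a negative and 8 a positive log2 fold change, with a median of -0.45 against 0.03 over all genes tested. The 13 rows with an unadjusted p under 0.05 were all negative. In 6 rows (15.8%) every KO library lay below every WT library, which held for 11% of all genes, and in 0 rows did every KO library lie above, which held for 8.04% of all genes. The 36 genes of the arms alone leave out Ndufa4 and the pseudogene Ndufb4c. Of these 36, 4 fell, 0 rose and 28 were negative, with a median of -0.42. Every KO library lay below every WT library in 5 of them. The 1794 genes called became 983 without WT replicate 4 and 1179 without WT replicate 2, and 3 subunit rows were called in each case. The share of subunit rows called with all libraries was thus near that of all genes, while the signs of the differences were mostly negative. Log2 fold changes are on the log2(normalized count + 1) scale, KO minus WT, and a gene was called at an adjusted p under 0.05. Since these are bulk spleen samples, fewer cells of a type and less RNA per cell cannot be told apart.

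**Figure D1:**
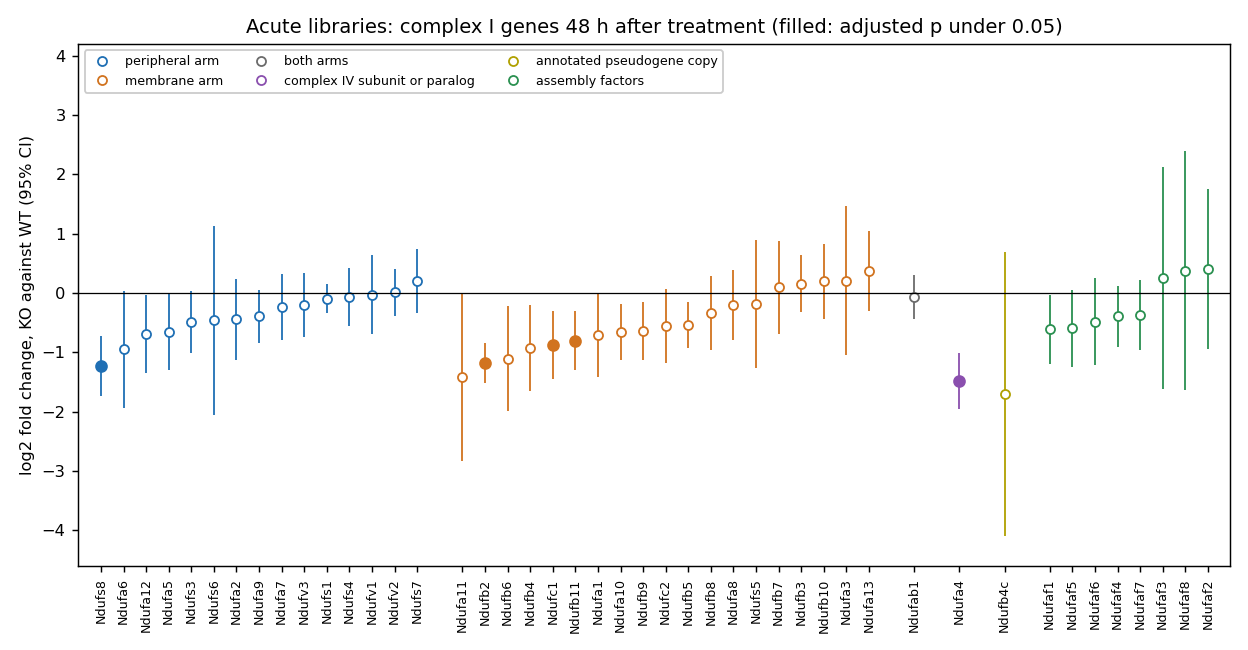
Log2 fold change, KO against WT, of 45 of the 46 tested Nduf genes in the acute libraries (y axis; points with 95% confidence intervals; 4 KO and 4 WT libraries), grouped along the x axis by structural class and filled where the adjusted p was under 0.05. The filled points are Ndufs8 in the peripheral arm, Ndufb2, Ndufc1 and Ndufb11 in the membrane arm, and Ndufa4, all below 0.

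In the peripheral arm 1 of 16 genes fell and 0 rose, with a median of -0.32, beside 8.07% of all genes called lower. The gene that fell was Ndufs8, which encodes a core subunit that carries iron-sulfur clusters. Its normalized counts were 151.5, 174.9, 152.9 and 154.6 in WT and 59.2, 74.1, 54.5 and 84.5 in KO. All 4 KO libraries lay far below the WT libraries, at 42.9% of the WT mean (68.1 ± 13.8 against 158 ± 11.0, SD, n = 4 each). This was a log2 fold change of -1.23 (SE 0.23, limma adjusted p = 0.00513).

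The other nuclear core genes gave no call, and 3 of the 7 core genes had positive values (median -0.03). Ndufs1, which encodes the largest iron-sulfur subunit, was at 1118.1, 1263.2, 1146.3 and 1118.7 in WT and at 1177.0, 1136.3, 998.4 and 1048.0 in KO. These ranges overlap, and the difference of -0.09 had a 95% confidence interval of -0.34 to 0.15, which leaves out a fall of the size seen in Ndufs8. Ndufv1, the subunit that binds FMN and oxidizes NADH, was at 113.4, 102.7, 57.0 and 95.6 in WT and at 53.4, 119.2, 97.7 and 95.02 in KO, a difference of -0.03 (95% CI -0.70 to 0.65). Its partner Ndufv2 was at 169.2, 207.2, 249.2 and 195.7 in WT and at 200.1, 187.7, 217.2 and 218.6 in KO (difference 0.02, 95% CI -0.38 to 0.41). For both genes the groups overlapped over most of their range.

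Ndufs7 encodes an iron-sulfur subunit at the ubiquinone site. It was at 183.2, 88.6, 107.1 and 99.5 in WT and 147.3, 122.4, 142.6 and 119.0 in KO (difference 0.20, 95% CI -0.34 to 0.75). The KO libraries lay within the WT range, but only WT replicate 1 (183.2) was above them. With 1 library left out the difference ran from 0.08 to 0.43. Ndufs3, another core subunit of the peripheral arm, was at 113.9, 90.5, 145.3 and 110.8 in WT and 92.5, 67.7, 83.8 and 81.5 in KO, with 1 KO library above the lowest WT library (difference -0.48, 95% CI -1.01 to 0.04, adjusted p = 0.214). The remaining peripheral-arm genes, accessory subunits, ranged from -0.95 (Ndufa6, adjusted p = 0.197) to -0.06 (Ndufs4, adjusted p = 0.892), all negative.

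In the membrane arm 3 of 19 genes fell and 0 rose, with a median of -0.56, beside 8.07% of all genes called lower. The 3 genes of the arm that fell all encode accessory subunits. Ndufb2 was at 548.5, 467.7, 596.8 and 677.1 in WT and at 225.5, 263.6, 270.5 and 241.3 in KO. The KO libraries lay close together, at 43.7% of the WT mean (250.2 ± 20.7 against 573 ± 87.7, SD, n = 4 each), with a log2 fold change of -1.18 (SE 0.16, limma adjusted p = 0.000969).

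Ndufc1 was at 200.6, 191.4, 237.5 and 212.8 in WT and at 68.7, 96.1, 151.9 and 166.6 in KO, a log2 fold change of -0.88 (SE 0.27, limma adjusted p = 0.0475). The groups did not overlap, and KO replicates 1 and 2 were the lowest. Ndufb11, an X-linked gene, was at 206.0, 252.3, 198.6 and 261.2 in WT and at 200.6, 114.3, 112.3 and 112.1 in KO, a log2 fold change of -0.80 (SE 0.23, adjusted p = 0.0365). Here KO replicate 1 lay within the WT range and the other 3 KO libraries far below it.

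Among the membrane-arm genes that were not called, Ndufb4 (-0.92, adjusted p = 0.0912) and Ndufb9 (-0.64, adjusted p = 0.0822) also had every KO library below every WT library. Ndufb4 was at 43.5, 73.2, 78.7 and 114.7 in WT and at 32.6, 39.4, 43.3 and 38.2 in KO. Ndufb9 was at 113.0, 128.9, 147.7 and 172.2 in WT and at 83.1, 104.3, 85.7 and 82.3 in KO. In both genes the gap between the groups was small beside the spread of WT. Ndufa11 (-1.42, SE 0.66, adjusted p = 0.174) had the lowest value of the arm on low counts of 2.6 to 31.2, and Ndufa13 (0.37, adjusted p = 0.476) the highest. Ndufab1, the mitochondrial acyl carrier protein, which sits in both arms, differed by -0.07 (95% CI -0.44 to 0.30).

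Ndufa4, the complex IV subunit, was at 263.8, 290.1, 178.9 and 260.7 in WT and at 83.2, 75.8, 106.5 and 84.8 in KO, a log2 fold change of -1.48 (SE 0.22, limma adjusted p = 0.00158). The groups did not overlap, and the KO mean was 35.3% of WT. Its paralog Ndufa4l2 was at 0 to 6.22 in the acute libraries, too low to test. The lowest value of all 46 tested genes belonged to the pseudogene Ndufb4c, at 17.8, 5.0, 23.9 and 18.4 in WT and at 0, 0, 29.2 and 14.9 in KO. Its spread was wider than the difference (-1.71, SE 1.11, adjusted p = 0.342).

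**Figure D2:**
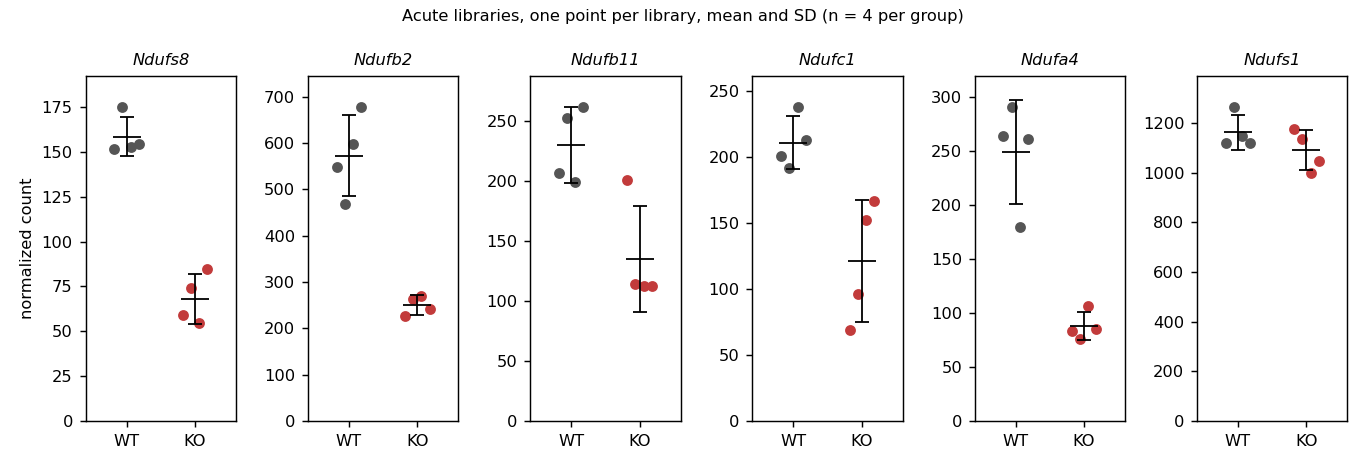
Normalized counts (y axes, each starting at 0) of the 5 called subunit rows and of Ndufs1 in the acute libraries, with 1 point per library and bars for the mean and SD (n = 4 per group). KO lies below WT without overlap in Ndufs8, Ndufb2, Ndufc1 and Ndufa4, in Ndufb11 KO replicate 1 (200.6) lies within the WT range, and the groups overlap in Ndufs1.

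The promoters of 3 of the rows that fell are shown so that they can be set beside that of Ndufaf4, the gene called at the endpoint. Each is the 120 bases before the RefSeq transcription start on GRCm38.p6, read 5′ to 3′ on the strand of the gene: chr19:3912775-3912894 (minus) for Ndufs8, chr6:39592445-39592564 (plus) for Ndufb2 and chrX:20617620-20617739 (minus) for Ndufb11. Capitals would mark a match to any of the 4 motifs searched, and these stretches hold none.
Ndufs8: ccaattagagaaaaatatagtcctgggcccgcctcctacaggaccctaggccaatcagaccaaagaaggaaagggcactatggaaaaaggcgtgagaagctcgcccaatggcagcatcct
Ndufb2: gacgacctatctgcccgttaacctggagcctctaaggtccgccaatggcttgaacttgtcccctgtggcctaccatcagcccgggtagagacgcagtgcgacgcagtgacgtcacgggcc
Ndufb11: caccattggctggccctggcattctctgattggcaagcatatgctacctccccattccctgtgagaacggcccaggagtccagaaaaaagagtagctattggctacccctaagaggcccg

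A RefSeq promoter was found by symbol for 40 of the 47 genes, with 42 windows in all, and the 250 bases before each start were searched on both strands. GCGCATGCG, a core of the site read by NRF1, a transcription factor of respiratory genes, was in 3 of 42 windows (7.14%; Ndufa8, Ndufa11 and Ndufaf4) and in 1.45% of all 32851 RefSeq windows. CCGGAAG, a core of the site of ETS factors such as GABPA, was in 5 (11.9%; Ndufaf1, Ndufaf8, Ndufb6, Ndufb7 and Ndufs3) and in 6.91% of all. AAGATGGC, read by YY1, and TCAAGGTCA, read by estrogen-related receptors, were in 0 of 42 and in 1.57% and 0.387% of all. In 34 of 42 windows none of these letters was found. None of the 5 subunit rows that fell in the acute comparison was among the genes with a match, and of the 8 matched genes only Ndufaf4 was called in any comparison. A match is a string of letters in the window and not a measured binding site.

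The calls of Ndufs8, Ndufb2 and Ndufa4 held in all 18 alternative settings and left-out libraries run, with adjusted p up to 0.0313. Those of Ndufb11 and Ndufc1 did not: they held in 8 and 7 of 18. Ndufb11 lost its call without any 1 library other than KO replicate 1 (adjusted p 0.0528 to 0.110), and Ndufc1 without any 1 WT library, KO replicate 1 or KO replicate 2 (0.0777 to 0.116). Without KO replicates 1 and 2 together Ndufc1 stood at -0.40 (adjusted p = 0.316). With a trend over transcript length, GC content and abundance removed from each library, 3 subunit rows fell, among 1226 genes called in all. The median of the subunit rows was then -0.30, and Ndufb11 (-0.67, adjusted p = 0.106) and Ndufc1 (-0.64, adjusted p = 0.137) did not pass. Of all genes called, 63.8% were lower in KO as deposited, 52.7% after quantile normalization and 52.0% after removal of that trend. The median of the subunit rows was negative under each scaling, at -0.53 after quantile normalization. Another gene has a transcript 96.9% identical to that of Ndufb11 over at least 50% of its length, so the Ndufb11 count is uncertain.

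The KO libraries did not carry these differences equally. The median distance of the subunit rows from the WT mean was -0.77 in KO replicate 2 and -0.29 to -0.40 in the other KO libraries. Without KO replicate 2 the median was -0.33 with 3 rows called, among 1328 genes called in all. Without KO replicates 1 and 2 together it was -0.30 with 4 rows called, among 903 genes called in all. The share of counts in all mitochondrially encoded genes was 4.80% and 5.27% in KO replicates 1 and 2 and 2.35% and 2.70% in KO replicates 3 and 4, around a WT range of 3.50% to 3.69%. The subunit rows together took 0.0715% to 0.0838% of the counts in KO and 0.0891% to 0.0960% in WT, with no overlap.

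Markers of other cells differed between the acute groups as well, where 12.6% of all genes were called in either direction and 8.07% lower. The neutrophil list took 0.0232% to 0.0709% of the counts in KO and 0.0119% to 0.0239% in WT, and 2 of its 14 tested genes rose (median 0.78). The B cell list took 0.00496% to 0.0140% in KO and 0.00364% to 0.00865% in WT, and 0 of 7 were called (median 0.93, 2 with an unadjusted p under 0.05). The erythroid list took 0.0845% to 0.236% in KO and 0.151% to 0.247% in WT, and 3 of 13 fell (median -0.80). Of the T-ALL and thymocyte list, at 0.689% to 0.976% in KO and 0.868% to 1.08% in WT, 4 of 16 fell and 1 rose (median -0.24). The macrophage list took 0.00762% to 0.0112% in KO and 0.00689% to 0.0107% in WT, with 0 of 8 called and 0 with an unadjusted p under 0.05. Cebpe, Cd79a, Vpreb3, Fcrla, C1qa and C1qc were at 0 in at least 1 acute library. KO replicate 2, which had the lowest subunit median (-0.77), had the highest neutrophil (0.0709%) and B cell (0.0140%) shares of the acute libraries. Its T-ALL and thymocyte share was the lowest (0.689%), while its erythroid share (0.236%) lay within the WT range. KO replicate 4 (0.0232%) lay within the WT neutrophil range. The part of these cells in the values of the Nduf genes was not tested.

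Of the 8 Ndufaf genes, 0 passed the test in the acute libraries, where 12.6% of all genes were called in either direction. Their median was -0.38 (-0.21 without KO replicate 4), and 5 values were negative. Ndufaf1, which acts in building the membrane arm, had the smallest p. It was at 162.6, 131.3, 215.6 and 121.0 in WT and 78.5, 118.4, 78.0 and 138.0 in KO, with 1 KO library inside the WT range (-0.61, unadjusted p = 0.0389, adjusted p = 0.153). Ndufaf2, a factor of the late steps, had the highest value of all tested Nduf genes, with a wide spread in both groups: 52.4, 8.2, 20.6 and 49.4 in WT and 62.5, 11.6, 40.1 and 48.4 in KO (0.40, SE 0.63, adjusted p = 0.723). Among 9 further assembly factors without an Nduf symbol 0 were called and 1 had an unadjusted p under 0.05 (median -0.19), with Tmem70, a membrane protein of complex I and ATP synthase assembly, at -0.51 (adjusted p = 0.0841).

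The mitochondrially encoded core genes, mt-Nd1 to mt-Nd6 and mt-Nd4l, gave 0 calls of 7, beside 12.6% of all genes called in either direction. Their median was 0.13, with values from -0.36 (mt-Nd3, adjusted p = 0.169) to 0.36 (mt-Nd6, adjusted p = 0.286). Only mt-Nd3 had an unadjusted p under 0.05. As a share of the counts the mt-Nd genes took 1.67% and 1.76% in KO replicates 1 and 2, 0.827% and 0.876% in KO replicates 3 and 4, and 1.04% to 1.11% in WT. The KO libraries thus lay on both sides of WT.

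The nuclear genes of the other complexes of oxidative phosphorylation also had negative medians in the acute comparison. Of complex II, 1 of 4 genes fell (median -0.27), namely Sdhb, its iron-sulfur subunit (-1.20, adjusted p = 0.00491). Of complex III, 3 of 9 fell (median -0.33), with the smallest adjusted p for Uqcrc2, a core protein (-1.11, adjusted p = 0.00265). Of complex IV without Ndufa4, 5 of 10 fell (median -0.87), with the smallest adjusted p for the accessory subunit Cox7c (-0.93, adjusted p = 0.00361). Of ATP synthase, 8 of 15 fell (median -0.59), with the smallest adjusted p for the catalytic subunit Atp5b (-0.99, adjusted p = 0.000790). None of these genes rose. Of all genes tested 8.07% were called lower and 12.6% in either direction, with a median of 0.03. Of 12 nuclear regulators of respiratory genes, 1 fell and 0 rose (median -0.01): Yy1, a transcription factor, changed by -0.56 (SE 0.13, adjusted p = 0.0143). Pprc1 stood at 0.55 (adjusted p = 0.056), Nrf1 at 0.07 (adjusted p = 0.811) and Gabpa at -0.30 (adjusted p = 0.130). The differences between the lists were not tested.

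**Figure D3:**
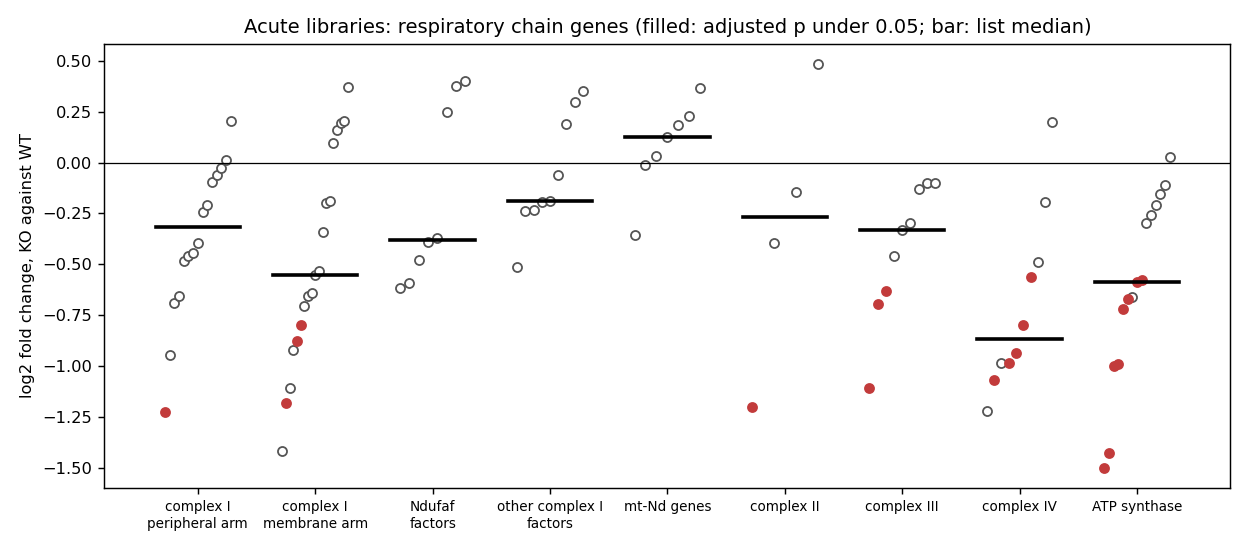
Log2 fold change, KO against WT, in the acute libraries (y axis) of nuclear and mitochondrially encoded respiratory genes grouped by complex (x axis), with 1 point per gene shown, filled where the adjusted p was under 0.05, and a bar at each list's median. The medians are -0.32 and -0.56 in the arms of complex I, -0.87 in complex IV, -0.59 in ATP synthase and 0.13 in the mt-Nd genes.

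Across the 38 subunit rows the Pearson correlation of the acute log2 fold change with log2 transcript length was 0.225 (Spearman 0.243), that with GC content 0.166 (0.189) and that with log2 mean level 0.163 (0.0292). The genes share libraries and are not independent, and the values are descriptions. The SD of the members in WT acute libraries, on the log2 scale, ran from 0.0836 to 1.75 with a median of 0.324, and the rows with low counts had the widest confidence intervals. Besides Ndufb11, transcripts nearly identical to those of Ndufa12, Ndufab1, Ndufs3, Ndufs5 and Ndufs6 exist in other genes, so their counts are uncertain too.

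In the survival libraries the question is how these genes stood in leukemia that grew out after early tamoxifen. In the first wave 0 of 38 subunit rows and 0 of 8 Ndufaf genes were called by limma, and 0% of all 14286 genes tested were. An unadjusted p under 0.05 was found in 1146 genes, of which 0 were subunit rows and 1 was an Ndufaf gene. The subunit rows had a median of 0.12 and the Ndufaf genes of 0.27, against 0.01 over all genes. Ndufs3 (0.43, adjusted p = 0.672) and Ndufaf4 (0.85) had every KO library above every WT library, and groups did not overlap in 8% of all genes. In the second wave 0 of 38 subunit rows were called (2 with an unadjusted p under 0.05) and 1 of 8 Ndufaf genes, Ndufaf4, rose, with 0.224% of all genes called in either direction. The medians were 0.09 for the subunit rows, 0.34 for the Ndufaf genes and -0.01 for all genes. With 1 library left out the median of the subunit rows went as low as 0.027 in the first wave (without WT replicate 4) and 0.00094 in the second (without second-wave replicate 1). That of the Ndufaf genes went down to 0.069 without WT replicate 1 and 0.17 without first-wave replicate 1 in the first wave, and in the second to 0.19 without second-wave replicate 1 or 2 and 0.20 without WT replicate 1. The 32 genes called in the second wave became 15 without WT replicate 2, 19 without WT replicate 1, 21 without first-wave replicate 1 or 2, 61 without second-wave replicate 3 and 140 without WT replicate 3. Both waves share the same WT libraries.

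The 5 subunit rows that fell in the acute comparison were not below WT in the first wave. Their log2 differences there were 0.32 for Ndufs8, 0.47 for Ndufb2, 0.35 for Ndufb11, 0.40 for Ndufc1 and 0.44 for Ndufa4, and in the second wave 0.31, 0.33, 0.27, -0.26 and 0.01 in the same order. None of these passed the test. Ndufs8 was at 181.7, 192.7, 231.0 and 183.4 in WT survival, 261.6, 226.5 and 248.7 in the first wave and 288.2, 264.1 and 189.8 in the second, so both KO groups overlapped WT at their lower end. Ndufb2 was at 286.6, 426.5, 527.9 and 445.2 in WT, 490.0, 505.3 and 757.6 in the first wave and 614.0, 535.9 and 421.7 in the second. The 95% confidence intervals of the first-wave differences, -0.18 to 0.82 for Ndufs8 and -0.06 to 1.01 for Ndufb2, leave out a fall of the acute size. Of the 30 subunit rows that were negative in the acute comparison, 21 were positive in the first wave and 20 in the second, and of all 38 subunit rows 25 were positive in each wave. The acute and survival libraries were normalized and fitted separately, and the difference between their fold changes was not tested.

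**Figure D4:**
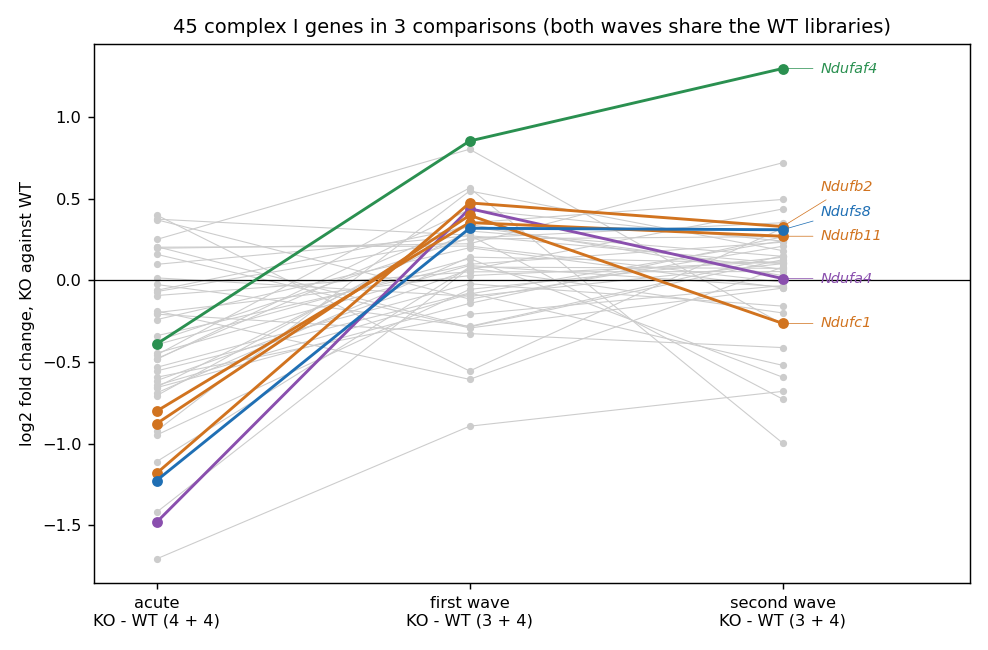
Log2 fold change, KO against WT (y axis), of 45 of the 46 tested Nduf genes in the acute, first-wave and second-wave comparisons (x axis), with a line per gene; the genes called in any of them are coloured by class and named. The 5 subunit rows that fell in the acute comparison lie at 0.32 to 0.47 in the first wave, and Ndufaf4 goes from -0.39 to 0.85 and 1.30.

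In the core, Ndufs1 was at 1541.6, 1450.0, 1414.2 and 1307.1 in WT survival, at 1719.7, 1302.6 and 1442.8 in the first wave and at 1555.4, 1487.9 and 1400.8 in the second, with the KO libraries on both sides of WT. The 7 core genes gave 0 calls in either wave, with medians of 0.19 and 0.10. Of all genes 0% were called in the first wave and 0.224% in the second. In the second wave Ndufa9, an accessory subunit near the ubiquinone site, was at 174.4, 190.4 and 132.1 against 255.4, 260.4, 277.5 and 202.9 in WT (-0.59, adjusted p = 0.325). Ndufb10, a membrane-arm subunit, was at 165.3, 171.0 and 156.8 against 121.0, 82.5, 118.1 and 82.4 (0.72, adjusted p = 0.336). In these genes and in Ndufaf4 the second wave did not overlap WT, which held for 9.66% of all genes. Ndufs6 had the lowest second-wave value (-0.996, SE 0.72, adjusted p = 0.576), on counts of 3.2, 3.2 and 12.4 against 9.2, 11.0, 12.5 and 13.0 in WT. In the first wave the lowest was the pseudogene Ndufb4c (-0.89, adjusted p = 0.672), at 17.2, 9.2 and 29.7 against 30.3, 50.7, 28.6 and 24.1.

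Ndufaf4 encodes an assembly factor that binds early intermediates of the peripheral arm together with Ndufaf3. It lies on chromosome 4 of GRCm38 (chr4:24898083-24905001, plus strand). Its normalized counts were 147.9, 158.4, 237.0 and 186.8 in WT survival (mean 183 ± 39.9, SD, n = 4), 320.7, 312.4 and 343.1 in the first wave (325 ± 15.9, n = 3) and 530.1, 379.1 and 431.8 in the second (447 ± 76.6, n = 3). All 6 KO libraries lay above all 4 WT libraries, and the second wave above the first. Of all 14286 genes tested, 178 had every KO library above every WT library and 125 had every one below. The second wave lay wholly above the first in 900 genes and wholly below it in 1042. Against WT the second wave had a log2 fold change of 1.30 (SE 0.23, limma adjusted p = 0.0319) and the first one of 0.85 (SE 0.23, unadjusted p = 0.00234, adjusted p = 0.617). Over both waves together it was 1.08 (SE 0.20, adjusted p = 0.207), in a comparison where 0.021% of all genes and 0 Nduf genes were called (0 subunit rows and 1 Ndufaf gene with an unadjusted p under 0.05). The 3 genes called there became 5 without second-wave replicate 3 and 155, Ndufaf4 among them, without WT replicate 3.

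The 120 bases before the RefSeq start of Ndufaf4 (chr4:24897963-24898082 on GRCm38.p6, plus strand) are shown because the gene was the only Nduf gene called at the endpoint. Capitals mark the NRF1 letters, a match on each strand that overlaps the other.
Ndufaf4: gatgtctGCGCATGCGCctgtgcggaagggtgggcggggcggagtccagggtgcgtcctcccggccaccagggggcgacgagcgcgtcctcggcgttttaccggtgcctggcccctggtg
The match runs from 113 to 105 bases before the start on the strand of the gene and from 112 to 104 on the other strand.

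In the acute libraries Ndufaf4 did not pass: it was at 212.8, 249.0, 354.6 and 245.8 in WT and at 276.0, 239.7, 160.5 and 146.6 in KO, with KO replicates 1 and 2 inside the WT range and the other KO libraries below it (-0.39, 95% CI -0.90 to 0.12, adjusted p = 0.308). Its partner Ndufaf3 had low counts in the acute libraries (0.692 to 29.4), and in the survival libraries it differed by 0.80 in the first wave (adjusted p = 0.701) and -0.27 in the second (adjusted p = 0.880). The other Ndufaf genes ranged from -0.56 (Ndufaf2) to 0.35 (Ndufaf6) in the first wave and from -0.73 (Ndufaf8) to 0.50 (Ndufaf6) in the second. Of the 9 further assembly factors 0 were called in the second wave, with 2 at an unadjusted p under 0.05 (median 0.32). Of the 12 nuclear regulators 0 were called there, with 4 at an unadjusted p under 0.05, 2 of them negative (median -0.03). Nrf1 stood at 0.04 (adjusted p = 0.943). Of all genes 0.224% were called in the second wave.

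**Figure D5:**
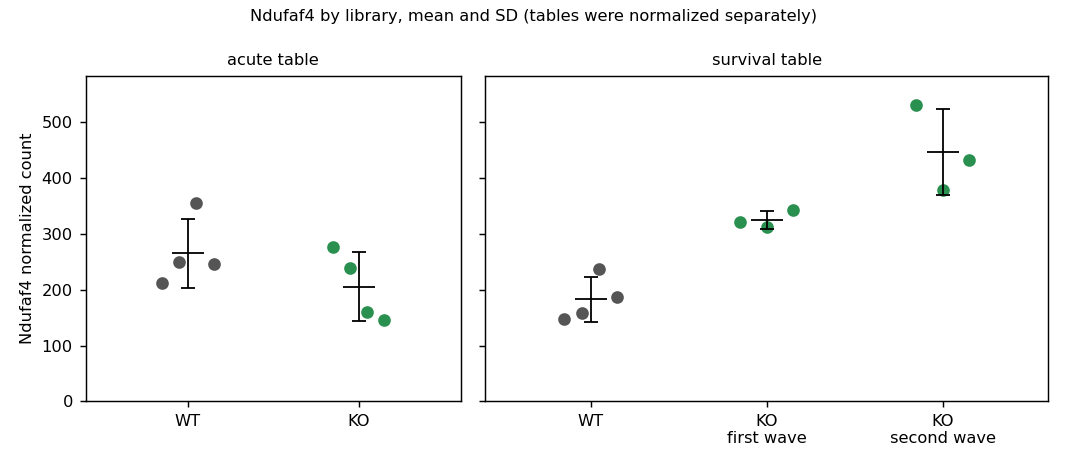
Normalized counts of Ndufaf4 (y axis, from 0) by group (x axis), with 1 point per library and bars for the mean and SD; the acute and survival tables were normalized separately, so levels are compared within a panel only. In the survival panel WT lies at 147.9 to 237.0, the first wave at 312.4 to 343.1 and the second wave at 379.1 to 530.1.

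The Ndufaf4 difference in the second wave ran from 1.07 to 1.43 over 21 alternatives. Some of these, such as the eBayes settings and the left-out first-wave libraries, could not change its size. The call of Ndufaf4 rests on the whole set of libraries: the adjusted p was under 0.05 in 9 of the 21. It was lost without any 1 library other than second-wave replicate 2 or WT replicate 3 (adjusted p 0.0556 to 0.140), without WT replicates 1 and 2 together (1.07, adjusted p = 0.197), in a fit of the compared groups alone (adjusted p = 0.148), and with eBayes without a trend (adjusted p = 0.0864). In the survival libraries the T-ALL and thymocyte list took 0.549% to 1.04% of the counts in WT, 0.922% to 1.20% in the first wave and 0.675% to 0.849% in the second. The neutrophil list took 0.00296% to 0.0179% in WT, 0.00300% to 0.00477% in the first wave and 0.00319% to 0.00405% in the second, and the B cell list 0.00278% to 0.00595%, 0.00286% to 0.00309% and 0.00134% to 0.00203%. The erythroid list took 0.0978% to 0.363% in WT, 0.105% to 0.263% in the first wave and 0.121% to 0.504% in the second, and the macrophage list 0.00586% to 0.0167%, 0.0114% to 0.0139% and 0.00782% to 0.0269%. Of these lists 1 B cell gene fell in the second wave and 0 other genes were called in either wave. Cebpe and Vpreb3 had no values for the survival libraries, nor Ahsp in either table, so they were not analysed there. Besides these, 4 other neutrophil and 6 other B cell markers were at 0 in at least 1 library. WT replicates 1 and 2, the lowest in Ndufaf4, had the highest neutrophil shares of the survival libraries (0.0179% and 0.0110%). They also had the highest B cell shares (0.00499% and 0.00595%) and the lowest T-ALL and thymocyte shares (0.549% and 0.674%). In WT replicates 3 and 4 the neutrophil share was 0.00296% and 0.00403%. The part of these cells in the Ndufaf4 values was not tested.

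The waves themselves were also compared. Between the second and the first wave 0 Nduf genes were called (2 subunit rows and 0 Ndufaf genes with an unadjusted p under 0.05), and 0.119% of all genes were. The 17 genes called became 1 without first-wave replicate 1 or 2, 10 without first-wave replicate 3, 6 without second-wave replicate 1, 4 without WT replicate 2, 8 without WT replicate 3 or 4 and 38 without second-wave replicate 3. Ndufaf4 differed by 0.44 (95% CI -0.08 to 0.97, adjusted p = 0.860). Among these subunit rows was Ndufa9, at 174.4, 190.4 and 132.1 in the second wave and 251.0, 237.6 and 335.3 in the first (-0.73, adjusted p = 0.612). The lowest value was that of Ndufs6 (-1.56, adjusted p = 0.822), at 3.2, 3.2 and 12.4 in the second wave and 18.9, 10.9 and 24.7 in the first, and the highest that of Ndufaf2 (0.88, adjusted p = 0.906). No Nduf gene was thus distinguishable between the waves with 3 libraries in each.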

How the data were processed

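RNA sequencing of 18 libraries from leukemic spleens was used as deposited. The authors deposited signal values, which are gene read counts estimated with kallisto 0.44.0 on GRCm38 and divided by DESeq size factors, per the submitters' processing notes. Not given in the sources used here: transcript annotation, gene filter, strand setting, DESeq version. The acute and survival tables were normalized separately and were not compared in level. Steps between low values gave the estimated depth, which bounds counting error only. Only 38.1% to 63.7% of the values under 8 fell on whole multiples of that step (tolerance 0.02), so no count model was used.

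Log2(value + 1) of genes with a mean of at least 10 was fitted with limma 3.58.1 in R 4.3.3 (lmFit, eBayes with trend), with Benjamini-Hochberg adjustment over all genes tested and a threshold of 0.05. The acute fit held 8 libraries and the survival fit all 10 with a shared spread. A pseudocount of 1 understates the change of low genes. The code was tested on simulated data. Coordinates, lengths and GC content came from GENCODE M21, and promoters from RefSeq. Near-identical transcripts were found with blastn (at least 95% identity over at least 50% of the transcript).

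Groups came from the sample titles. The members and lists were chosen with earlier results of these data known. Values per library are given for called genes, the nuclear core genes and the extreme value of each comparison, and other genes with values were chosen after these were seen. The values of 1 member, which is counted in the lists, are not reported here. Alternatives were the pseudocount, filter, quantile normalization, eBayes settings, trend removal, a replicate block and left-out libraries. Whether replicate numbers pair the samples is not stated. Same-numbered libraries correlated at -0.0295 to 0.0946 in their deviations from the group means, and differently numbered ones at -0.102 to 0.105. These ranges overlap, so they cannot show whether samples were paired.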

Additional observations from a re-analysis of the deposited data

Results flagged for a closer look

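In 57 groups of 4 libraries checked for a library far from the others, 2 were found, and chance gives about 1 in 20. Ndufb11 was at 200.6 in KO acute replicate 1, while the other 3 KO acute libraries lay at 112.1 to 114.3. Ndufs8 was at 174.9 in WT acute replicate 2, while the other 3 WT acute libraries lay at 151.5 to 154.6.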

How the results depend on the processing

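The medians of the subunit rows and of the Ndufaf genes kept their sign in the acute, first-wave, second-wave and both-waves comparisons under every alternative run. The eBayes settings leave fold changes as they are, so those runs could not alter a sign. The replicate block likewise returned the same acute medians (-0.45 and -0.38). In the second wave the median of the subunit rows came as low as 0.00094, near 0. The number of subunit rows that fell in the acute comparison was 3 with eBayes without a trend and 3 with the length, GC and abundance trend removed, and 3 to 6 with 1 library left out (3 without WT replicate 2, 3 or 4 or KO replicate 2). Their median was -0.30 with that trend removed and -0.30 without KO replicates 1 and 2 together, and the acute Ndufaf median ran from -0.48 to -0.21 with 1 library left out. The number of Ndufaf genes called in the second wave was 0 with eBayes without a trend, 0 without WT replicates 1 and 2 together, 0 in a fit of the compared groups only, and 0 to 1 with 1 library left out. In both waves together it was 0 to 1, with Ndufaf4 called without WT replicate 3. The median of the subunit rows between the waves ran from -0.089 to 0.022 with 1 library left out, the last without second-wave replicate 3, and was -0.10 after quantile normalization. First-wave Acly passed the threshold at -1.21 with a pseudocount of 10 and at -1.22 with no filter, a minimum mean of 50, quantile normalization, robust eBayes, trend removal and without second-wave replicate 3 (adjusted p = 0.0255), and ran from -1.29 to -1.15 with 1 library left out. All genes called in the acute comparison numbered 1794, and 693 with eBayes without a trend. They numbered 903 without KO replicates 1 and 2 together and 983 to 1634 with 1 library left out. In the second wave they numbered 32, and 13 to 140 over the alternatives. The causes were not tested.

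With the replicate number as a block, 5 acute subunit rows were called, although Ndufb11 was not (adjusted p = 0.0646), and 0 Ndufaf genes were called in the second wave, where Ndufaf4 stood at 1.32 (adjusted p = 0.0789). Whether the numbers pair the samples is not known.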
